A study of Mus musculus with 4 samples.

Results

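The 10 genes described here mark early steps of the oligodendrocyte lineage and were measured in nuclei of the mouse superior colliculus, the part of the midbrain roof where retinal and other sensory signals arrive. They are Pdgfra, Cspg4, Olig1, Olig2, Gpr17, Enpp6, Bcas1, Tns3, Itpr2 and 9630013A20Rik, and they were taken by symbol from the 31053 genes of the count matrix. All 10 symbols were found, each on 1 row. The genes were picked with their pattern in these data already known, and the nuclei were assigned to subtypes by the study's authors from the same counts, so every level below is a description and no test was made on it.

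The nuclei came from C57BL/6J mice at embryonic day 19 (E19) and postnatal days 4, 8 and 21 (P4, P8 and P21). Each stage was 1 library of tissue pooled from several animals, and neither how many nor of which sex is stated in the labels. The labels name no transgene and no treatment for any group. With 1 library per stage there is no replicate error, so the 95% intervals below (exact Poisson for levels, exact Clopper-Pearson for shares of nuclei) cover counting error only, and a stage difference is a difference between 2 libraries.

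Oligodendrocytes, the myelin-forming glia of the brain, arise from oligodendrocyte precursors, which divide, migrate and carry the receptor for platelet-derived growth factor. Precursors that leave this state pass through a short committed, or newly formed, stage before they make myelin. During that stage the precursor receptors are switched off and a set of early differentiation genes is switched on, much of which is switched off again in mature myelinating cells. The authors' annotation follows these steps with 3 subtypes of 1 oligodendrocyte-lineage class, called precursor (OPC in the authors' table), committed and myelinating below.

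The genes fall into 4 roles. Pdgfra encodes the alpha receptor for platelet-derived growth factor, and Cspg4 encodes the chondroitin sulfate proteoglycan NG2 of the precursor surface. Olig1 and Olig2 encode basic helix-loop-helix transcription factors of the lineage. Gpr17 encodes a G protein-coupled receptor found on late precursors and newly formed oligodendrocytes. The early differentiation genes are Enpp6, which encodes a choline-specific phosphodiesterase, Bcas1, which encodes a protein of newly formed and myelinating oligodendrocytes, Tns3, which encodes the focal adhesion protein tensin 3, Itpr2, which encodes the type 2 inositol trisphosphate receptor, and 9630013A20Rik, a long noncoding RNA that RefSeq also lists as lncOL1. Gpr17 and these 5 are called the commitment genes in counts over nuclei.

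In GENCODE M21 on GRCm38, Olig2 (chr16:91225457-91228677, plus strand) and Olig1 (chr16:91269772-91271933, plus strand) are neighbours with 41094 bases between them. Pdgfra lies at chr5:75152292-75198215 (plus), Cspg4 at chr9:56865033-56899870 (plus), Enpp6 at chr8:46986887-47096762 (plus), Bcas1 at chr2:170346991-170427845 (minus), Tns3 at chr11:8431652-8664535 (minus) and Itpr2 at chr6:146108299-146502223 (minus). The noncoding 9630013A20Rik, annotated as antisense, lies at chr14:84458639-84476424 (minus) opposite Pcdh17. Bcas1 is overlapped by its antisense genes Bcas1os1 and Bcas1os2. Pdgfra, Olig1, Enpp6 and Itpr2 are also overlapped by annotated genes on the opposite strand. Pdgfra (by Mir7025) and Itpr2 (by Gm44086 and Gm15720) are overlapped on the same strand as well. The labels do not state if reads were assigned by strand, and overlapping pairs could share UMIs. Intronic reads were counted, so levels are compared for each gene between groups of nuclei and not between genes.

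Promoter windows from 250 bases before to 50 after the RefSeq start were available from RefSeq (GRCm38.p6) for 7 of the 10 genes, namely Pdgfra, Cspg4, Olig2, Enpp6, Tns3, Itpr2 and 9630013A20Rik. The windows of 1 gene that was high in precursors (Pdgfra, chr5:75152001-75152300, plus strand) and of 3 that were high in committed nuclei (Enpp6, chr8:46986637-46986936, plus; Tns3, chr11:8664486-8664785, minus; 9630013A20Rik, chr14:84476375-84476674, minus) are shown because these genes differ widely between the subtypes in the levels that follow. They were searched on both strands for 2 E-box sequences bound by OLIG proteins (CATATG and CAGATG) and 2 core sequences bound by SOX proteins (ACAAAG and AACAAT), and matches are in capitals, as they read on the strand shown.
Pdgfra: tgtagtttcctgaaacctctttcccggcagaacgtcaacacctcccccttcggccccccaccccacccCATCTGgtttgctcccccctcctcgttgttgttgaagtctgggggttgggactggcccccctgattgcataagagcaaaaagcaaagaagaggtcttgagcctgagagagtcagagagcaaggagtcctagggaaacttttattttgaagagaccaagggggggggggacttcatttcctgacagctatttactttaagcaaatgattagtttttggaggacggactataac
Enpp6: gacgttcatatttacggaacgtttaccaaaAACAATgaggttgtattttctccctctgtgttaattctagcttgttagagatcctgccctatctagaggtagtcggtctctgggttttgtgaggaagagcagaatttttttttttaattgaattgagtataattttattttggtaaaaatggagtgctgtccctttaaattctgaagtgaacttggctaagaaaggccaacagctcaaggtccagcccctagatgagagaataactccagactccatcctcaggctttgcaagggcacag
Tns3: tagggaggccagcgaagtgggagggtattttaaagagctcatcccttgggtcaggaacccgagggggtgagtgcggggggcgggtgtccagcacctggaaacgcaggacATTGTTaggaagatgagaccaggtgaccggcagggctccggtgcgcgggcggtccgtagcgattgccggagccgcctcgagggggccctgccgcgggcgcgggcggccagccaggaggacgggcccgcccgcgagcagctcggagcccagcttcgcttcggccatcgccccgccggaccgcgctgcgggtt
9630013A20Rik: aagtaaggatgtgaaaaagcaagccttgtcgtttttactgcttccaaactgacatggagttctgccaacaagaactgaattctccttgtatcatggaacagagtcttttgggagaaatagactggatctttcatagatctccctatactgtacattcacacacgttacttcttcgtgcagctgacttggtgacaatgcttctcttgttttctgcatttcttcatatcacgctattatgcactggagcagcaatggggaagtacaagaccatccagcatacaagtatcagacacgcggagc
Pdgfra held 1 CAGATG on the opposite strand, 182 bases before its start. Enpp6 held AACAAT 220 bases before its start, and Tns3 held it on the opposite strand 141 bases before its start. The 9630013A20Rik window held none of the 4 sequences. Of the windows not shown, Olig2 held AACAAT on the opposite strand 67 bases before its start, and Cspg4 and Itpr2 held none. Among all 32851 promoter windows of this length, 20.3% held an E-box of either kind and 27.0% a SOX core of either kind. No match overlapped another in these windows. A match here is a run of letters and not a shown binding site.

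The 4 libraries held 2249 to 2585 nuclei and 19277512 to 31325079 UMIs (unique molecular identifiers, each counting 1 captured RNA molecule). Oligodendrocyte-lineage nuclei numbered 47, 54, 143 and 306 by age, 550 of 9724 nuclei in all. Precursor nuclei numbered 46, 42, 109 and 64 in that order, committed nuclei 1, 12, 33 and 55, and myelinating nuclei 0, 0, 1 and 187. Median depth per precursor nucleus was 4157, 3795.5, 4515 and 4467 UMIs, while committed nuclei had medians of 4409.5 at P4, 6152 at P8 and 8510 at P21. Levels are UMIs summed over the nuclei of a group and scaled to 1000000 UMIs of that sum (CPM), and groups under 10 nuclei are given only as single nuclei.

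Pdgfra was high in precursor nuclei and nearly undetected in committed ones. In precursor nuclei its 4 levels from E19 to P21 were 1243 CPM (1090.1 to 1412), 838 (705 to 988), 761 (687 to 840.5) and 761 (666 to 867). In committed nuclei 0 UMIs were counted at P4, 2 at P8 and 2 at P21, which are 9.52 CPM (1.15 to 34.4) and 4.12 CPM (0.499 to 14.9). Both P21 UMIs came from 1 nucleus. The precursor and committed intervals did not overlap in any of the 3 libraries, and at P4 the level was at least 16.5-fold lower in committed nuclei when the 0 is set to its limit of 3 counts. Summed over the libraries the ratio was 162-fold (63.0 to 595). Myelinating nuclei at P21 held 5 UMIs (3.19 CPM), 239-fold (101 to 742) less than the precursors of that library.

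Cspg4 followed the same order with lower depth behind it. In order of age its precursor levels were 341, 285, 300.5 and 501 CPM (424 to 588 for the last), so the P21 library was the highest and its interval did not overlap those of P4 and P8. Committed nuclei held 1 UMI at P4 (17.0 CPM), 5 at P8 (23.8) and 5 at P21 (10.3). The precursor level was 12.6-fold (5.30 to 39.5) higher than the committed one at P8 and 48.7-fold (20.4 to 152) at P21. In myelinating nuclei at P21 it was 7.66 CPM, close to the committed level of that library.

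**Figure D1:**
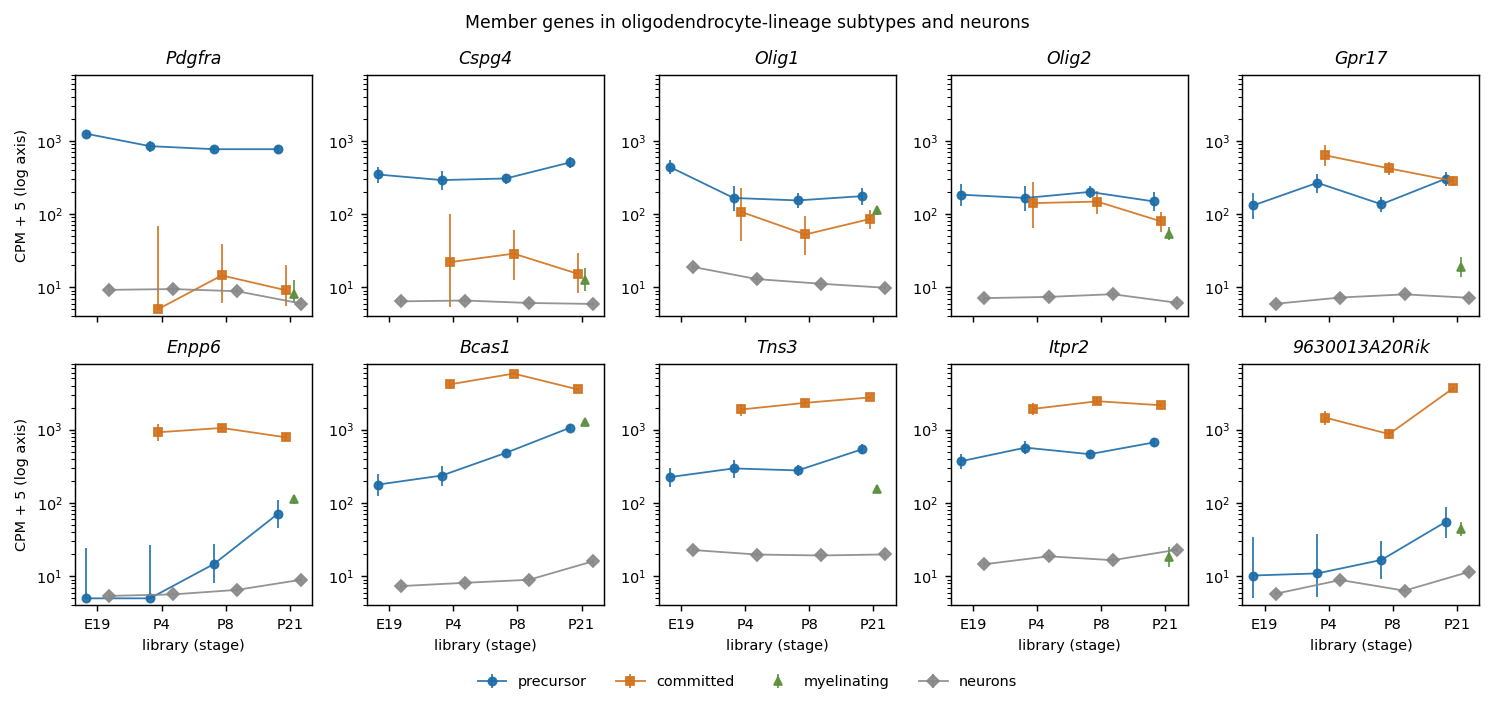
Level of each gene (CPM + 5, log axis) in precursor, committed and myelinating nuclei and in neurons of each library; bars are 95% Poisson intervals, which cover counting error only, and groups under 10 nuclei are left out. Pdgfra and Cspg4 stay high in precursor and low in committed nuclei, while Enpp6, Bcas1, Tns3, Itpr2 and 9630013A20Rik are higher in committed nuclei at P4, P8 and P21.

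Olig1 and Olig2 differed in their levels across the libraries. Olig1 stood at 435 CPM (347 to 540) in precursor nuclei at E19 and at 160.5 (106 to 234), 148 (117 to 186) and 170.3 (127 to 224) at P4, P8 and P21, so the E19 library was high and the other 3 overlapped. Olig2 stood at 178, 160.5, 195 and 144 CPM in the same nuclei, and all 4 intervals overlapped. From E19 to P4 Olig1 was 2.71-fold (1.74 to 4.36) lower, against 1.11-fold (0.651 to 1.92) for Olig2. The share of precursor nuclei with an Olig1 UMI, after each nucleus was thinned to 2000 UMIs, was 58.7% at E19 (43.2 to 73.0) and 28.6% (15.7 to 44.6), 26.6% (18.6 to 35.9) and 34.4% (22.9 to 47.3) later. The same share for Olig2 was 32.6, 33.3, 27.5 and 31.2%. Whether the difference between the 2 genes is larger than the spread between animals could not be measured. Olig1 was higher at E19 than at P21 also in neurons (2.88-fold, 2.31 to 3.60) and astrocytes (4.83-fold, 3.10 to 7.73). In dividing nuclei it was not (0.732-fold, 0.365 to 1.56). Olig2 was 1.83-fold (1.10 to 3.06) higher at E19 in neurons and 3.93-fold (2.30 to 6.92) in astrocytes.

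Both factors stayed detectable along the lineage. Committed nuclei held Olig1 at 101.8 CPM (37.4 to 222) at P4, 47.6 (22.8 to 87.5) at P8 and 80.3 (57.1 to 109.8) at P21, and Olig2 at 136, 143 and 74.1 CPM. Olig1 was 3.12-fold (1.61 to 6.76) lower in committed than in precursor nuclei at P8 and 2.12-fold (1.37 to 3.31) at P21. Olig2 was 1.37-fold (0.901 to 2.13) lower at P8 and 1.94-fold (1.22 to 3.10) at P21. In myelinating nuclei at P21 Olig1 stood at 107 CPM (91.6 to 125), not below the committed level, while Olig2 stood at 49.1 CPM (38.8 to 61.4), 2.92-fold (1.96 to 4.30) below precursors.

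Gpr17 was the one commitment gene that was not higher in committed than in precursor nuclei at P4, P8 and P21 alike. The gene lies at chr18:31942997-31949636 on the minus strand of GRCm38 and overlaps Lims2 on the other strand. Its precursor levels were, by age, 126 CPM (80.7 to 187), 262 (190.0 to 351), 131 (101 to 166) and 297 (239 to 366). Its committed levels were 628 CPM (442 to 865) at P4, 414 (332 to 511) at P8 and 278 (233 to 329) at P21. Committed nuclei were thus 2.40-fold (1.51 to 3.80) and 3.17-fold (2.28 to 4.42) higher at P4 and P8, and the 2 groups overlapped at P21 (0.935-fold, 0.710 to 1.24). Myelinating nuclei at P21 held 14.0 CPM, 19.8-fold (12.6 to 32.6) less than committed nuclei.

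Enpp6 had few or no UMIs in precursor nuclei. No UMI was counted in precursor nuclei at E19 or P4, which allows up to 19.4 and 21.9 CPM, and there were 5 UMIs at P8 (9.76 CPM) and 20 at P21 (66.8 CPM, 40.8 to 103). Committed nuclei held 916 CPM (688 to 1196), 1052 (918 to 1200) and 782 (706 to 865) at P4, P8 and P21. The committed level was at least 51.4-fold higher at P4, with the precursor 0 set to 3 counts, 108-fold (45.5 to 335) higher at P8 and 11.7-fold (7.48 to 19.4) higher at P21. Myelinating nuclei held 107 CPM (91.6 to 125), 7.30-fold (6.07 to 8.80) below committed nuclei and 1.61-fold (1.01 to 2.70) above precursors of that library.

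The long noncoding RNA 9630013A20Rik differed between the libraries of committed nuclei. It stood at 1459 CPM (1167 to 1802) at P4, 866 (745 to 1001) at P8 and 3681 (3512 to 3855) at P21, so P21 was 4.25-fold (3.65 to 4.98) above P8. Precursor nuclei held 1, 1, 6 and 15 UMIs at E19, P4, P8 and P21, the last 50.1 CPM (28.03 to 82.6). The committed level was 74.0-fold (33.3 to 204) higher at P8 and 73.5-fold (44.4 to 132) at P21. Myelinating nuclei held 39.6 CPM, 93.0-fold (72.2 to 122) less than committed ones, and 26 of their 62 UMIs came from 1 of 187 nuclei, without which the level was 23.1 CPM.

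Bcas1 differed from these in that it stayed high after commitment. Committed nuclei held 4140.2 CPM (3637 to 4694) at P4, 5824 (5503 to 6160) at P8 and 3545 (3379 to 3716) at P21, and myelinating nuclei still held 1255 (1200.2 to 1312). Precursor levels were 173 CPM (119 to 243), 232 (165 to 317), 478 (420.1 to 542) and 1058 (945 to 1182) in order of age, so each library from P8 on lay above the one before it. The committed level was accordingly 17.9-fold (12.7 to 25.7), 12.2-fold (10.6 to 14.0) and 3.35-fold (2.97 to 3.79) above the precursor level at P4, P8 and P21. Myelinating and precursor nuclei at P21 differed by 1.19-fold (1.05 to 1.34).

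Tns3 and Itpr2 were expressed in precursors at every stage and higher in committed nuclei. Tns3 stood at 220.3, 291, 273 and 534 CPM in precursor nuclei from E19 to P21 and at 1883, 2322 and 2750.3 CPM in committed nuclei from P4 to P21. Its committed level was higher by factors of 6.47 (4.58 to 9.25), 8.499 (7.03 to 10.3) and 5.15 (4.37 to 6.10) in that order. Itpr2 stood at 367, 565, 459 and 664 CPM in precursor nuclei and at 1917, 2441 and 2149 CPM in committed nuclei, with ratios of 3.40 (2.56 to 4.51), 5.32 (4.55 to 6.24) and 3.23 (2.78 to 3.78). The pair parted in myelinating nuclei, where Tns3 was 152 CPM and Itpr2 13.4 CPM (8.29 to 20.5). Itpr2 was 160.4-fold (104 to 260.2) below its committed level and 49.6-fold (31.6 to 81.9) below its precursor level, and Tns3 was 18.1-fold (15.8 to 20.9) and 3.52-fold (2.86 to 4.32) below.

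Members were counted as higher or lower when the ratio of CPM, with 5 CPM added to both sides, was at least 2-fold and the higher side reached 20 CPM. For committed over precursor nuclei all 10 members reached that minimum in each of the 3 libraries. At P4, 6 were higher and 2 lower, where 17.8% of all genes at the minimum were higher and 23.4% lower. At P8, 6 were higher and 3 lower (10.8% and 15.1% of all genes), and at P21, 5 were higher and 3 lower (13.5% and 24.5%). Since the subtypes were drawn on these genes, nothing is read from those counts. For myelinating over committed nuclei at P21, 8 members reached the minimum, 0 were higher and 6 lower (10.7% and 11.1% of all genes), the 6 being Gpr17, Enpp6, Bcas1, Tns3, Itpr2 and 9630013A20Rik. For myelinating over precursor nuclei at P21, 0 of 10 were higher and 6 lower (15% and 24.9% of all genes). For committed nuclei from P4 to P8, 0 of 9 members at the minimum were higher and 1, Olig1, was lower (15.3% and 19% of all genes), on 6 and 10 UMIs. From P8 to P21, 1 of 9, 9630013A20Rik, was higher and 0 were lower (11.1% and 20.2% of all genes). Scaling to the median gene in place of the total moved the median of all genes by more than 0.1 on the log2 scale in some comparisons, by -0.17 for committed over precursor nuclei and by -0.16 for myelinating over precursor nuclei at P21, and by -0.24 for committed nuclei from P8 to P21.

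Within precursor nuclei the later libraries held more of several commitment genes. From E19 to P21, 5 of 10 members were higher and 1 lower, against 11.4% and 17.8% of all genes. The higher ones were Gpr17 (2.36-fold, 1.49 to 3.88), Enpp6 (at least 4.24-fold, with the E19 value of 0 set to 3 counts), Bcas1 (6.11-fold, 4.27 to 9.04), Tns3 (2.42-fold, 1.72 to 3.49) and 9630013A20Rik (1 and 15 UMIs), and the lower one was Olig1. Pdgfra was 1.63-fold (1.36 to 1.97) lower at P21 than at E19 and Itpr2 1.81-fold (1.37 to 2.41) higher, both short of 2-fold. From P8 to P21, 4 members were higher and 0 lower (5.69% and 7.62% of all genes). From E19 to P4, of 8 members at the minimum, Gpr17 was higher and Olig1 lower (10.5% and 10.6% of all genes). From P4 to P8 Bcas1 alone was higher and 0 were lower (5.51% and 8.41%).

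Of these 5 genes, 4 were also higher at P21 than at E19 in neurons, at far lower levels, and Tns3 was not (0.833-fold, 0.716 to 0.970). In neurons Enpp6 was 9.93-fold (4.65 to 25.3) higher, at 0.400 and 3.98 CPM, and 9630013A20Rik 8.05-fold (4.67 to 15.1), at 0.800 and 6.45 CPM. Bcas1 was 4.71-fold (3.39 to 6.70) higher in neurons, at 2.34 and 11.04 CPM, and Gpr17 2.26-fold (1.30 to 4.15), at 0.972 and 2.20 CPM. An excitatory neuron nucleus of very high depth, described further on, is included in these P21 levels. In astrocytes Enpp6 had 0 UMIs at E19 and 12 at P21, and 9630013A20Rik 0 and 26. The part of such RNA in the precursor levels was not tested.

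Part of the difference between precursor libraries sat in few nuclei. Among nuclei labelled precursor, 1 of 46, 2 of 42, 11 of 109 and 9 of 64 by age held no Pdgfra UMI, a division made after the values were seen. The 9 such nuclei at P21 held Bcas1 at 3510.1 CPM (2955 to 4140), Gpr17 at 1021 (732 to 1385), Tns3 at 1295 (967 to 1698), Itpr2 at 1543 (1183 to 1979) and Enpp6 at 349 (191 to 585). The other 55 held 679 CPM of Bcas1 (582 to 787), 185 of Gpr17 (136 to 245), 416 of Tns3 (342 to 503), 528 of Itpr2 (444 to 625) and 23.1 of Enpp6 (8.49 to 50.4). Depth did not separate the 2 sets, whose median UMIs per nucleus were 4868 and 4400. At P8 the 11 nuclei without Pdgfra lay closer to the other 98 in Tns3, Gpr17 and Itpr2. There Tns3 stood at 359 CPM (205 to 583) against 265 (220.4 to 316) and Gpr17 at 202 (92.4 to 383) against 124 (94.1 to 160.3). Itpr2 stood at 673 CPM (454 to 961) against 438 (380 to 502). Bcas1 stood at 1167 CPM against 412, but 26 of its 52 UMIs came from 1 nucleus. Enpp6 stood at 112 CPM (36.4 to 262) against 0, which allows up to 7.88 CPM. Its 5 UMIs came from 2 nuclei, with 4 in 1 of them.

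Counted over precursor nuclei with a Pdgfra UMI only, Bcas1 stood at 171, 218, 412 and 679 CPM from E19 to P21, so it was no longer 2-fold higher from P4 to P8 or from P8 to P21 and remained so from E19 to P21. Gpr17 in the same nuclei stood at 129, 274, 124 and 185 CPM, so its P21 level no longer lay 2-fold above P8 or E19. That P21 level of 185 CPM (136 to 245) stands beside 278 CPM (233 to 329) in committed nuclei of the same library. With this restriction 3 in place of 5 members were at least 2-fold higher at P21 than at E19, and 2 in place of 4 were higher at P21 than at P8. The share of all genes at 2-fold was not counted under this restriction, so nothing is read from the lower counts. The median share of a nucleus's UMIs that came from the 6 commitment genes was 0.169% in the 55 nuclei with Pdgfra and 0.854% (range 0.298 to 1.03%) in the 9 without at P21, and 0.123% and 0.161% in the 2 sets at P8, against 1.43% in P21 committed nuclei.

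**Figure D2:**
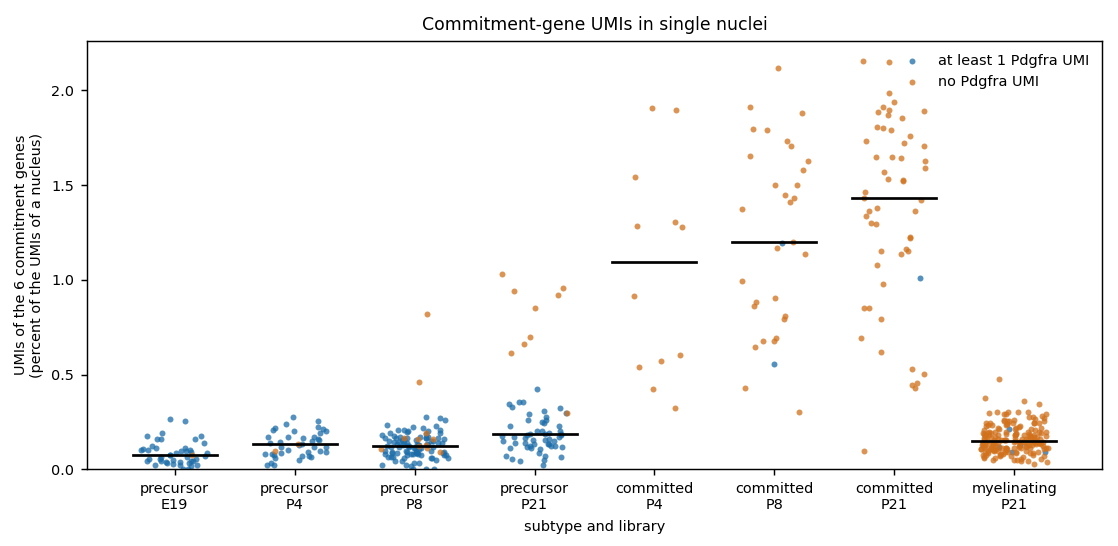
Percent of each nucleus's UMIs that came from Gpr17, Enpp6, Bcas1, Tns3, Itpr2 and 9630013A20Rik, by subtype and library; each point is 1 nucleus, coloured by whether it held a Pdgfra UMI, and lines are medians. Medians were 0.0755% in precursor nuclei at E19 and 0.185% at P21, 1.10 to 1.43% in committed nuclei and 0.151% in myelinating nuclei, and the 9 P21 precursor nuclei without Pdgfra sit between the precursor and committed medians.

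In the same nucleus, precursor and commitment genes were often found together in precursor nuclei and seldom in committed or myelinating ones. The subtypes were drawn on these genes, so nothing is read from that contrast. A UMI of Itpr2 or Tns3, both also found outside the lineage, was enough for a commitment gene. Itpr2 was present in 86 of the 98 P8 precursor nuclei with Pdgfra. A UMI of Pdgfra or Cspg4 and a UMI of at least 1 commitment gene were both present in 43 of 46 precursor nuclei of the E19 library, and in 42 of 42, 99 of 109 and 58 of 64 of the later ones. Both were present in 1 of 12 committed nuclei at P4, 6 of 33 at P8 and 6 of 55 at P21, and in 16 of 187 myelinating nuclei. With at least 2 UMIs of a gene required, precursor nuclei with both were 60.9, 69.0, 71.6 and 75% from E19 to P21, committed nuclei 0 of 12, 1 of 33 and 1 of 55, and myelinating nuclei 0 of 187, which allows a share of up to 1.95%. Neurons held both in 0.717, 1.54, 2.51 and 1.34% of nuclei by age at 1 UMI, and in 1, 1, 0 and 1 nuclei at 2 UMIs. After thinning to 2000 UMIs, 3 or more of the 6 commitment genes were detected in 8.70, 21.4, 17.4 and 48.4% of precursor nuclei by age, and in 100, 100 and 90.9% of committed nuclei from P4 to P21.

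Shares of nuclei were also compared at equal depth. At 2000 UMIs per nucleus Pdgfra was detected in 93.5% (82.1 to 98.6), 81.0% (65.9 to 91.4), 70.6% (61.2 to 79.0) and 67.2% (54.3 to 78.4) of precursor nuclei by age, against 0.211 to 1.48% of neurons. Cspg4 was detected in 43.5, 45.2, 44.0 and 64.1% of the same nuclei. Bcas1 was detected in 23.9, 31.0, 52.3 and 73.4% of precursor nuclei, and in 0.628 to 1.83% of neurons. Enpp6 was detected in 0 of 46, 0 of 42, 1 of 109 and 7 of 64 precursor nuclei (10.9% at P21, 4.51 to 21.2), against 0.914% of neurons at P21. Before thinning the shares were higher but in the same order for Pdgfra: 45 of 46, 40 of 42, 98 of 109 and 55 of 64.

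**Figure D3:**
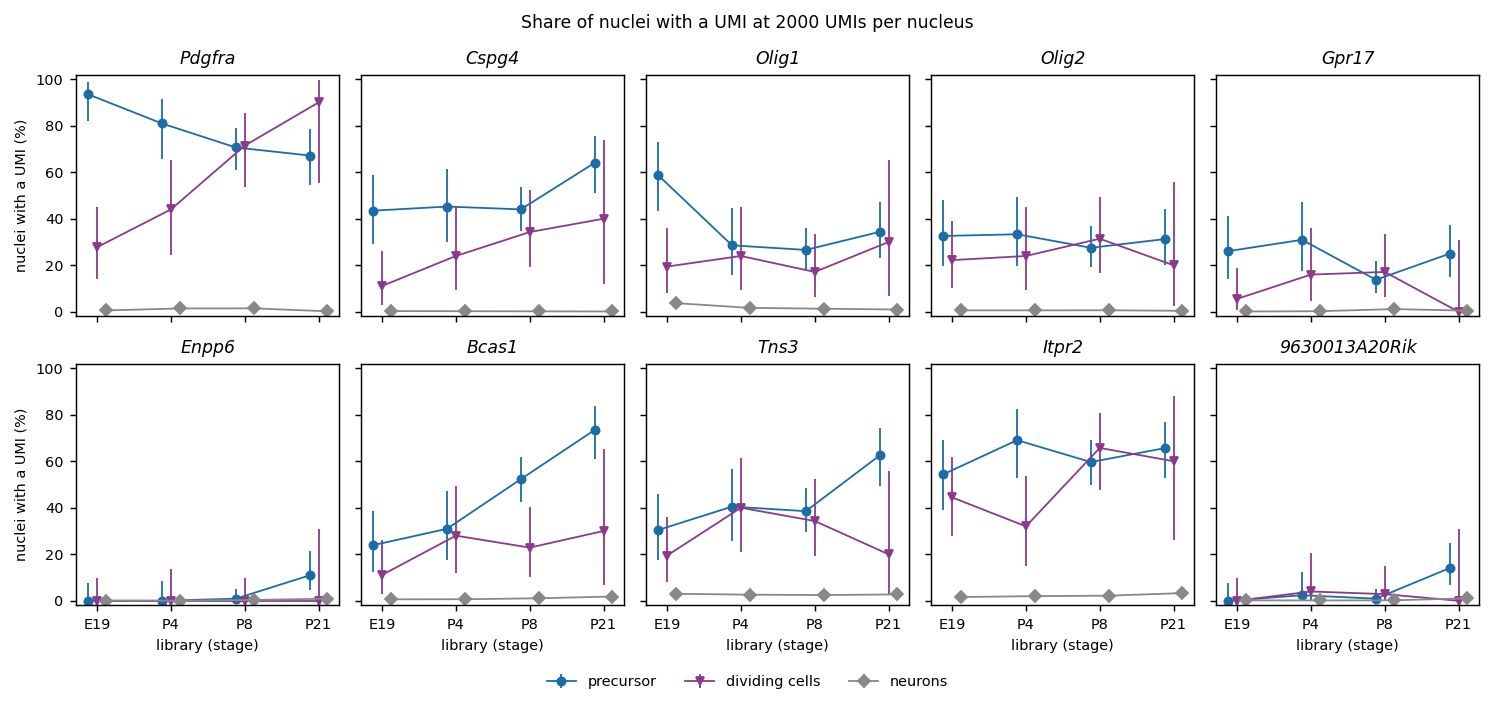
Percent of nuclei with at least 1 UMI of each gene after every nucleus was thinned to 2000 UMIs, in precursor nuclei, the authors' dividing class and neurons, by library; bars are 95% Clopper-Pearson intervals for counting error only. Pdgfra goes from 93.5 to 67.2% in precursor nuclei and from 27.8 to 90% in dividing nuclei, and Bcas1 goes from 23.9 to 73.4% in precursor nuclei.

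Single nuclei stood in for the groups too small to summarise. The only committed nucleus at E19 held 39 Bcas1, 24 Itpr2, 17 Tns3, 7 9630013A20Rik and 6 Enpp6 UMIs among 5883, with 0 of Pdgfra and Cspg4. The only nucleus labelled myelinating at P8 held 88 Bcas1, 58 Itpr2, 43 9630013A20Rik, 35 Tns3 and 17 Enpp6 UMIs among 11350, and 0 of Gpr17. Its Itpr2 share of 5110.1 CPM was far above the 13.4 CPM of the 187 myelinating nuclei at P21 and above the committed nuclei of its own library. It held 99 UMIs of the myelin gene Mbp and 0 of Mobp and Mog, which mark mature myelin.

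Against the rest of the tissue all 10 members were high in the lineage. All 10 were at least 2-fold higher in lineage nuclei than in all other nuclei of the same library in each of the 4 libraries, and 0 were lower, where 11.3, 13.8, 9.83 and 14.8% of all genes were higher from E19 to P21 and 12.8, 13, 12 and 22% lower. At E19 this rested on 1 nucleus for a pair of genes, since the single committed nucleus held 6 of 6 lineage UMIs of Enpp6 and 7 of 8 of 9630013A20Rik. The log2 ratio of Enpp6, lineage over all other nuclei, E19, was 2.73 with that nucleus and -0.074 without it.

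Several members were also measured outside the lineage. Pdgfra stood at 323, 231, 259.7 and 124 CPM by age in vascular leptomeningeal cells, fibroblast-like cells of the meninges, where precursors of the same library were higher by 3.85-fold (2.94 to 5.10) at E19 and by 6.13-fold (4.87 to 7.74) at P21. Cspg4 stood at 306, 175, 134 and 67.8 CPM in the class labelled endothelial, the last 117 CPM without 1 deep nucleus that held none, and at E19 the interval of the ratio held 1 (precursors 1.11-fold higher, 0.724 to 1.74). That class also held 6 of 6 markers of mural cells, the contractile cells of vessel walls, at a summed 2792 to 4182 CPM beside 6968 to 9101 CPM of endothelial markers, and their part in the Cspg4 level was not tested. Tns3 stood at 478, 317, 553 and 450.2 CPM in microglia, the resident immune cells of the brain. Its microglia level was 2.17-fold (1.29 to 3.60) above precursors at E19 and 2.02-fold (1.40 to 2.88) at P8. The interval of that ratio held 1 at P4 (1.09-fold, 0.633 to 1.82) and at P21 (0.843-fold, 0.601 to 1.16). Itpr2 was spread most widely, at 164, 242, 264 and 298 CPM in astrocytes, 216 to 284 in vascular leptomeningeal cells, 244 to 549.7 in epithelial cells and 384 to 786 in endothelial cells. The endothelial 786 CPM, at P21, was 258 without the same deep nucleus.

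**Figure D4:**
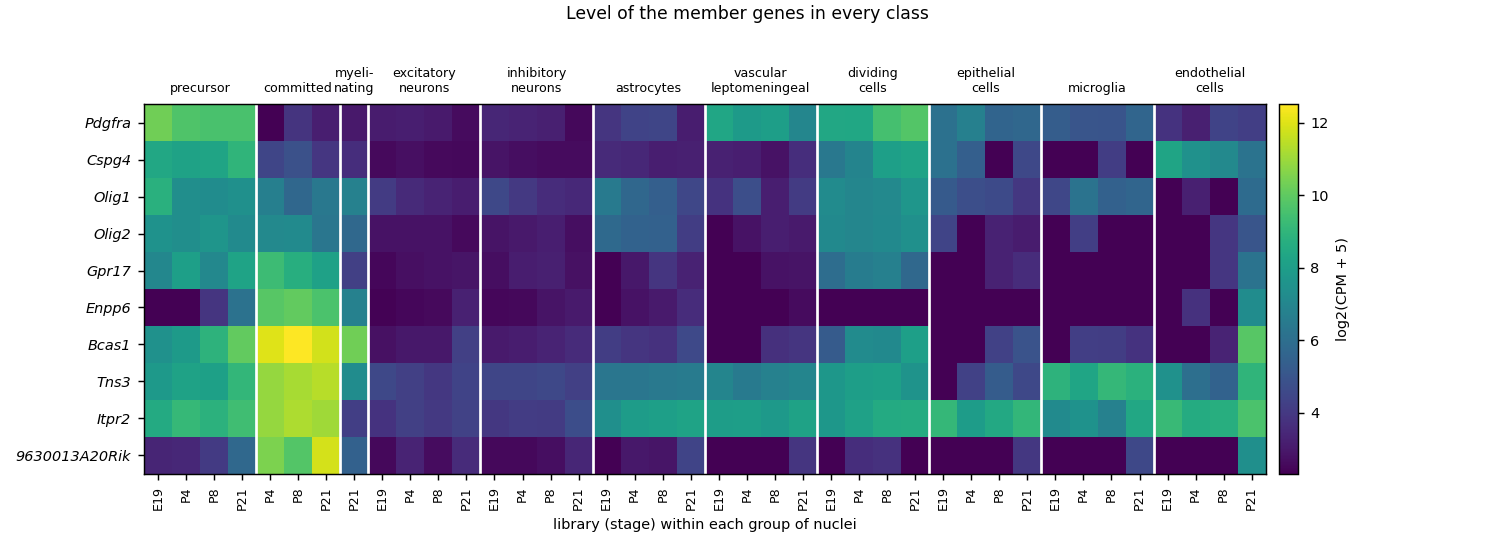
Level of each gene, as log2(CPM + 5), in every group of at least 10 nuclei, with libraries in order of age within each group. The 6 commitment genes are bright in committed nuclei, Pdgfra is also seen in vascular leptomeningeal and dividing cells, Cspg4 in endothelial cells, Tns3 in microglia and Itpr2 in most non-neuronal classes; the bright P21 endothelial column rests largely on 1 nucleus.

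Astrocytes held low levels of both lineage factors that were lower in older libraries. Olig1 stood at 83.1, 48.5, 37.9 and 17.2 CPM from E19 to P21, 4.83-fold (3.10 to 7.73) lower at P21 than at E19. Olig2 stood at 50.7, 40.6, 40.3 and 12.9 CPM, 3.93-fold (2.30 to 6.92) lower. Most of these UMIs were in nuclei labelled protoplasmic astrocyte, 71 of the 77 Olig1 UMIs at E19, where Olig1 stood at 96.5 CPM (75.4 to 122) at E19 and 17.9 (11.6 to 26.4) at P21. Fibrous astrocytes held 3 to 6 Olig1 UMIs per library. Neurons held Olig1 at 14.0 CPM at E19 and 4.86 at P21, so the astrocyte level lay above them at each end.

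The authors' dividing class, 36, 25, 35 and 10 nuclei from E19 to P21, held Pdgfra in a larger share of its nuclei in older libraries. A Pdgfra UMI was present in 13 of 36 dividing nuclei (36.1%, 20.8 to 53.8) in the youngest library, then in 15 of 25 (60%, 38.7 to 78.9), 27 of 35 (77.1%, 59.9 to 89.6) and 9 of 10 (90%, 55.5 to 99.7). The level of Pdgfra over the class was 339, 331, 712 and 865 CPM in the same order, against 761 CPM in precursors at P8 and P21. A UMI of Sox10, a lineage transcription factor, was present in 9, 13, 23 and 7 of these nuclei, and each of those nuclei also held Pdgfra. Cspg4 stood at 80.1, 115, 265 and 299.6 CPM. Enpp6 had 0 UMIs in the dividing class of all 4 libraries, and 9630013A20Rik 0, 1, 2 and 0 UMIs. Olig1 or Olig2 was present in 23, 16, 28 and 8 nuclei, and at E19 9 of the 23 also held Pdgfra. Olig1 stood at 146, 123, 135 and 199.7 CPM, and precursors were 2.98-fold (1.95 to 4.66) above the class at E19 and 0.853-fold (0.449 to 1.76) at P21. Nuclei of the class with 3 or more commitment genes made up 19.4, 32, 57.1 and 20% by age before thinning. After thinning to 2000 UMIs they made up 2.78, 16, 20 and 10%. Precursor nuclei with 3 or more made up 39.1, 54.8, 68.8 and 81.2% before thinning.

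Members found in neurons and endothelial cells came partly from single nuclei. At P21 an excitatory neuron nucleus of subtype EN11 with 244143 UMIs held 131 of the 209 Bcas1 UMIs of its class, 50 of 103 of 9630013A20Rik and 34 of 66 of Enpp6, and without it the class levels were 5.43, 3.69 and 2.23 CPM in place of 14.3, 7.05 and 4.52. At P4 a nucleus labelled EN7 with 29828 UMIs held 70 of 78 of its class's 9630013A20Rik UMIs. Without that nucleus the class level was 0.538 CPM in place of 5.24. It held 214 Mbp, 85 Mobp, 7 Mog and 11 Sox10 UMIs, and 3 UMIs of the neuron marker Snap25. At P21, 1 endothelial nucleus with 31131 UMIs held all 69 Bcas1, 11 Enpp6 and 5 Gpr17 UMIs of its class, and the class level of Itpr2 was 786 CPM with it and 258 without it. The nucleus also held 137 UMIs of Flt1, an endothelial receptor. These 3 nuclei were chosen from the values themselves, and whether they are single cells was not tested.

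Other genes of the lineage, in lists assembled for this description, gave context. Of 18 commitment genes outside the 10 members, 12 reached the minimum for committed over precursor nuclei at P8, with 10 higher and 0 lower (median log2 ratio 2.03, all genes 0.01), and 15 at P21, with 13 higher and 1 lower (2.69, all genes -0.22). Among them were Bmp4, a secreted growth factor (1 UMI in precursors and 81 in committed nuclei at P8), Sirt2, a deacetylase (16.8-fold, 12.04 to 24.1, at P8), and at P21 Tmem2 (58.3-fold, 22.6 to 215). The exception was Dpp10, 1038 CPM in precursors and 212 in committed nuclei at P21. Of 18 other precursor genes, all 18 reached the minimum, with 2 higher and 8 lower at P8 (10.8% and 15.1% of all genes) and 0 higher and 14 lower at P21 (13.5% and 24.5%). Neu4, a sialidase (10.8-fold, 5.68 to 22.1), and Tnr, the matrix protein tenascin R (6.58-fold, 6.06 to 7.14), were the higher ones at P8, and Megf11 and Emid1 were lowest at P21 with 10 and 4 UMIs in committed nuclei against 395 and 127.

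Transcription factors of the lineage were counted in both directions. Of 16, 14 reached the minimum at P8, with 6 higher and 5 lower in committed nuclei, and 13 at P21, with 5 higher and 3 lower. St18 (91.4-fold, 51.8 to 178) and Myrf, the activator of myelin genes (20.7-fold, 8.89 to 59.1), were highest at P8. Prrx1 (38 UMIs in precursors, 1 in committed nuclei) and Hes5, a Notch target (133 CPM in precursors, 28.6 in committed nuclei), were lowest. Of 16 growth factor and receptor genes, 1 was higher and 3 lower of 10 at the minimum at P8, and 4 higher and 3 lower of 10 at P21. Over all genes 10.8% were higher and 15.1% lower at P8, and 13.5% and 24.5% at P21. Of the growth factor and receptor genes, 1 of 10 higher at P8 and 3 of 10 lower at P21 thus lay near the background. So did 3 of 13 transcription factors lower at P21, and nothing is read from these counts. Pdgfa, a ligand of the receptor that Pdgfra encodes, stood at 21.5 CPM in precursors and 95.2 in committed nuclei at P8 (4.43-fold, 2.03 to 10.2). Fgfr2 was 6.89-fold (4.85 to 10.1) higher in committed nuclei at P21 and Fgfr1 was lower, at 12.4 against 66.8 CPM.

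Myelin genes were already present in committed nuclei. Of 18 in the list, 7 of 7 at the minimum were higher than in precursors at P8 and 10 of 13 at P21. Over all genes 10.8% were higher at P8 and 13.5% at P21. Mbp stood at 2265 CPM in committed and 54.6 in precursor nuclei at P8, and Mag at 1925 and 20.03 CPM at P21. In myelinating over committed nuclei at P21 the same list had 9 higher and 0 lower of 17, while 6 members were lower. Over all genes 10.7% were higher and 11.1% lower there. Summed myelin CPM in precursor nuclei was 207 at P8 and 1536 at P21, and in neurons of the same libraries 116 and 439. Myelin RNA was thus higher at P21 also in neurons, which do not make myelin, and its part in the P21 precursor levels was not tested. Summed levels of 8 neuron markers were 1873 to 2752 CPM in precursor and 788 to 1970.0 CPM in committed nuclei, against 13850.1 to 20078 CPM in neurons. All 8 were detected in each of these groups except Gad2, at 0 in committed nuclei at P4, where Meg3 was the most abundant of the others at 66 UMIs. Without the tenth of lineage nuclei highest in these markers, 176 of 180 ratios of members stayed within their counting error and 4 moved further. Several other alternatives moved more of these ratios, with counts in the last paragraph.

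The patterns of all genes over 40 groups of nuclei (subtype or class by library, each of at least 10 nuclei) were compared with those of the members by Pearson's r of log2(CPM + 5), over 13692 genes at 20 CPM or more in at least 1 group. These values describe groups that share libraries and carry no p. Pdgfra was most like Ankrd11 (r = 0.83), Cspg4 most like Mmp15 (0.88), and Olig1 and Olig2 most like Scrg1 (0.79 and 0.92). Gpr17 was most like 5730559C18Rik (0.96) and Sox10 (0.93), Bcas1 most like Plxnb3 (0.96), and Enpp6 and 9630013A20Rik most like Bfsp2 (0.92 each). Tns3 and Itpr2, with levels in several other classes, were most like Zeb2 (0.82) and Maml2 (0.85). Among the members themselves Enpp6 and 9630013A20Rik were closest (0.94), followed by Gpr17 and Bcas1 (0.91), Olig2 and Gpr17 (0.87) and Olig1 and Olig2 (0.85), while Pdgfra and Enpp6 had r = -0.30.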

How the data were processed

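Single-nucleus RNA-seq of the mouse superior colliculus was analysed, with 1 library of pooled animals for each of 4 stages. The deposited values are whole-number UMI counts per gene and nucleus, made by the authors with Cell Ranger 3.0.2, per the submitters' processing notes, on a mm10 pre-mRNA reference, per the labels' protocols. Cell class, subtype and the percent of mitochondrial counts came from the authors' deposited table of nuclei, of which 7 columns were not used. Doublet treatment, strand and annotation release are not given in the sources used here. UMI totals recomputed from the matrix matched the table in 9724 nuclei. Barcode sequences found in 2 or more libraries numbered 9 and touched 18 nuclei, 1 of them in the lineage. The embryonic stage follows the sample titles (E19).

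Counts were summed over nuclei by group and library and scaled to CPM (Python 3.11.15, numpy 2.4.6, scipy 1.17.1, pandas 2.3.3). Log2 ratios had 5 CPM added to both sides, a gene was counted at 2-fold or more with at least 20 CPM on the higher side, and thinning drew 2000 UMIs per nucleus, which left out none, since the shallowest nucleus had 2355. The procedure was checked on simulated data. A value of 0 was set to 3 counts for a bound on a fold, and ratios that rest on 1 to 3 counts are given as levels. No test was made, since each stage had 1 library. Gene positions came from GENCODE M21, which held 31011 of 31053 gene IDs.

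All 10 members are named. For each member the genes most like it across groups of nuclei are named, and from each other gene list up to 2 of the largest ratios in each direction for committed over precursor nuclei. Any other gene was chosen after its values were seen. The members and lists were chosen with earlier results of these data known. Alternatives were another pseudocount, no minimum, median-of-ratios scaling, equal weight per nucleus, thinning, leaving out the nucleus with most UMIs of a gene, and leaving out the tenth of lineage nuclei highest in neuron markers.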

Additional observations from a re-analysis of the deposited data

Results flagged for a closer look

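Gpr17, the receptor gene of late precursors and newly formed oligodendrocytes, was higher in committed than in precursor nuclei in 2 of the 3 libraries that held both. Its log2 ratio of committed over precursor nuclei was 1.25 at P4, 1.63 at P8 and -0.10 at P21, where the ratio of 0.935 had an interval of 0.710 to 1.24 and showed no direction. The difference between libraries was not tested, since each stage had 1 library. In the P21 library, 41 of the 89 Gpr17 UMIs of precursor nuclei came from the 9 precursor nuclei without a Pdgfra UMI. The other 55 held 185 CPM (136 to 245), against 278 CPM (233 to 329) in committed nuclei. That these 2 intervals overlapped does not show that the levels were alike, and no interval of their ratio was computed.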

How the results depend on the processing

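Most counts of members at 2-fold stayed within 1.5 times under the alternatives, and those that did not were between stages within 1 subtype; the cause was not tested. In precursor nuclei from E19 to P4 the count of higher members went from 1 to 0 with 20 CPM added, after thinning to 2000 UMIs and without the nucleus richest in each gene. From P4 to P8 it was 0 with 20 CPM added and 2 with no minimum, and the count of lower members was 1 with nuclei weighted alike and after thinning. In committed nuclei from P4 to P8 the count of lower members was 0 with 20 CPM added or median-of-ratios scaling and 2 after thinning, and the count of higher members was 1 with no minimum. From P8 to P21 the count of lower members was 1 with 1 CPM added or after thinning. Restricting precursor nuclei to those with a Pdgfra UMI, chosen after seeing the data, gave 0 higher and 1 lower from P4 to P8, 2 higher from P8 to P21 and 3 higher from E19 to P21. The share of all genes at 2-fold was not counted under that restriction. Ratios of single members moved beyond their counting error more often. Of 180 ratios, 65 moved with 20 CPM added, 41 with 1 CPM added and 31 with nuclei weighted alike. After thinning to 2000 UMIs 40 moved and 1 reversed. Without the nucleus richest in the member 13 moved and 1 reversed, and with median-of-ratios scaling 7 moved. Enpp6, lineage over all other nuclei, E19, had a log2 ratio of 2.73, which was -0.11 after thinning and -0.074 without its richest nucleus. No paired analysis was possible because each stage had 1 library. Genes under about 20 CPM in groups of 12 to 55 nuclei rest on few UMIs, which limits their ratios.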
